A study of Mus musculus with 12 samples.

Results

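Hunk is a serine/threonine protein kinase of the Snf1-related family, named for the yeast kinase Snf1 and including the catalytic subunits of AMP-activated protein kinase (AMPK). The genes described here are Hunk and 9 relatives: Snrk, Mark1, Mark2, Mark3, Sik1, the AMPK subunit genes Prkaa1, Prkab1 and Prkag1, and Stk11, which encodes LKB1. They were chosen by gene symbol, and every probe set annotated to a single such symbol was taken. 9 of the 10 genes had one, of 12393 named genes on the array, with 19 of its 22690 probe sets. No probe set annotated here carried the symbol Prkaa1, so the catalytic AMPK subunit was not analysed. Expression was measured on 12 Affymetrix arrays of mammary tumours from female FVB mice. 6 arrays held tumours of MMTV-c-myc/Hunk KO animals and 6 held tumours of MMTV-c-myc/Hunk WT animals, with no age given. All 12 arrays therefore held tumours that arose under the same c-myc transgene, driven in mammary epithelium by the mouse mammary tumour virus promoter. The females had been mated before tumours arose. In the Hunk KO allele a pGKneo cassette flanked by LoxP sites, introduced in E14 embryonic stem cells, took the place of the putative promoter and exon 1. Nothing in the labels says that each array came from a separate mouse, so the p-values reflect only how much these samples vary, which may be technical variation. Below, a numbered tumour stands for 1 array, and counts of tumours are counts of arrays.

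As background, LKB1 bound to a STRAD pseudokinase and a scaffold of the MO25 family phosphorylates the activation loop of AMPK and of most of its relatives and so switches them on. AMPK answers low cellular energy and is built of a catalytic alpha, a scaffolding beta and a nucleotide-binding gamma subunit. The MARK kinases phosphorylate microtubule-associated proteins and act in cell polarity, and SIK1 is a cAMP-induced kinase that restrains the CRTC coactivators of CREB. In the mouse mammary gland Hunk is found in a subset of epithelial cells and is raised during pregnancy.

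The sequence just before the annotated Hunk start is shown because the knockout allele was built by removing the putative promoter. Whether this exact stretch lies inside the replaced fragment is not given in the sources used here. It is taken from RefSeq, build GRCm38.p6, at chr16:90386147-90386396, plus strand. Capitals mark the 6-letter GC box GGGCGG, searched on both strands. The E-box CACGTG that Myc and its partner Max bind, the cAMP response element TGACGTCA, TATAAA and CCAAT were searched likewise.

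Hunk: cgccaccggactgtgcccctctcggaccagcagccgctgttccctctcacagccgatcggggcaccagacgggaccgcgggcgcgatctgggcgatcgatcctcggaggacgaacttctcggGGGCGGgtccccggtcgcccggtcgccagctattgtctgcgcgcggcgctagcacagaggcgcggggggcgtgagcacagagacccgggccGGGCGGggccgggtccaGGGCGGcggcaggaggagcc

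These 250 bases held 3 GC boxes, 34 CpG dinucleotides and 74.8% G and C, against a median of 6 CpG dinucleotides and 52.4% G and C over 32851 windows of the same length. A GC box stood in 32.7% of all such windows and in 11 of the 13 windows found for 9 of the 10 genes. Many CpG dinucleotides were not particular to Hunk. Windows of Mark1, Prkaa1 and Snrk held 52, 45 and 36, while the lowest count of the 13 was 6, in a Mark2 window. The E-box letters were in none of these 13 windows and in 6.02% of all windows. The letters TATAAA (12.4% of all windows), CCAAT (33.8%) and TGACGTCA (1.55%) were not in the Hunk window. A match here is a description of the letters and not of a bound site.

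The deposited values are log2 GCRMA signals, so a difference of 1 is a doubling of signal, and the array medians lay between 3.87 and 4.1. The highest Bacillus control probe set on each array served as its background, which averaged 3.71 ± 0.15 (SD, n = 6) in Hunk KO and 3.60 ± 0.10 (SD, n = 6) in Hunk WT tumours. Differences are Hunk KO minus Hunk WT. They were tested with limma over all 22626 non-control probe sets, and a call means a Benjamini-Hochberg adjusted p under 0.05. Knockout tumours 4 and 5 were the closest pair of arrays, with an SD of their difference over probe sets of 0.338 against 0.531 for the next pair, and the counts of calls, Hunk, the relatives above background on all arrays and the main family and pathway probe sets were also computed with these averaged. The luminal epithelial markers Krt8, Krt18, Epcam and Cdh1 were above background on all 12 arrays of this mammary tissue. Of the endothelial markers only 1 of 4 was above background on any array. The skeletal muscle marker Acta1 reached 12.41 in knockout tumour 3 and 8.35 in wild-type tumour 1, and the adipocyte marker Adipoq reached 6.29 in knockout tumour 2. In whole tumours fewer cells of a type and less RNA per cell cannot be told apart.

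Hunk signal was below background in every knockout tumour and uneven among wild-type tumours. Its only probe set had a lowest value of 2.60, a median of 3.01 and a highest value of 3.06 in the Hunk KO tumours, against a lowest of 2.99, a median of 4.02 and a highest of 5.53 in the Hunk WT tumours. Wild-type tumours 5 and 1 were the highest, at 5.53 and 5.36, and wild-type tumours 2 and 3 followed at 4.21 and 3.84. Wild-type tumours 4 and 6, at 3.32 and 2.99, were below their array background, and tumour 6 lay inside the knockout range, so the groups overlapped. The 6 knockout values were below background on their own arrays.

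The mean difference for Hunk was -1.26 (SE 0.39, 95% confidence interval -2.12 to -0.41). That interval assumes 1 spread for both groups, whereas the SD was 0.17 in Hunk KO and 1.05 in Hunk WT tumours. An exact two-sided permutation test over the 924 splits of 6 against 6 gave p = 0.0108, where the smallest possible is 0.00216. That p is for this single probe set and is not adjusted, and the unadjusted limma p was 0.00724. Over all probe sets limma did not call Hunk (adjusted p = 0.209), where it ranked 786 by p. Since no knockout array measured it, Hunk was also set against background, which gave a bound of 1.41-fold lower in knockout than in wild-type tumours. That bound sets the wild-type mean as measured, with tumours 4 and 6 below background, against the mean knockout background. It concerns the measured means and carries no sampling error, whereas the confidence interval above reaches -0.41. With the dim values of both genotypes raised to the background of their array, the difference was -0.64 (limma adjusted p = 0.333). Hunk thus read above background on 4 of the 6 wild-type arrays and on no knockout array. Wild-type tumour 4, at 3.32, exceeded the highest knockout value of 3.06 but was below background. Of the wild-type arrays only that of tumour 6 lay inside the knockout range. The position of the probes against the replaced part was not examined, and probes beyond it need not read the deletion.

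No relative of Hunk was called higher or lower in the knockout tumours. Of the 18 probe sets of the 8 measured relatives, 0 were called in limma. Over all probe sets 0.672% were called, and 0.323% of all probe sets were called higher in the knockout. A count of 0 among 18 thus says little, and the same fit did not call Hunk itself (limma adjusted p = 0.209). At an unadjusted p under 0.05 the count among the 18 was also 0, against 11.3% of all probe sets. The groups overlapped for all 18, but only 1.58% of all probe sets were separate, so this too says little. The median difference of the 18 was 0.02, against 0.036 over all probe sets, and 11 of the 18 were positive, where 69.1% of all probe sets were. 10 of the 18 exceeded the median probe-set mean of 3.98, 9 were above background on all 12 arrays and 6 on none. Among the 9 the median difference was 0.06 and 5 were positive, beside a median of 0.024 and a positive share of 53.5% over the 11105 probe sets above background on all arrays, of which 1.13% were called.

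**Figure D1:**
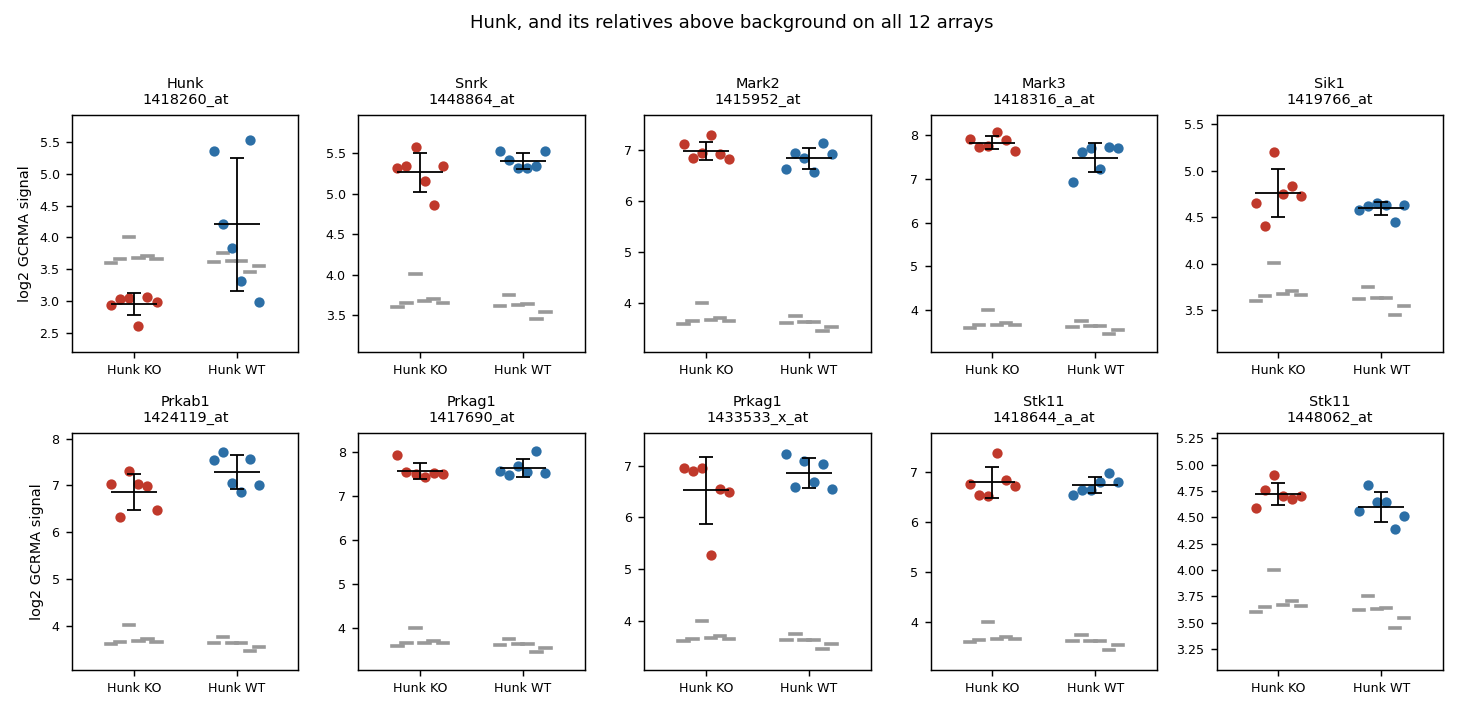
Log2 GCRMA signal of Hunk and of the 9 relative probe sets that were above background on all 12 arrays, with 1 point per tumour (Hunk KO left, Hunk WT right), black bars for mean ± SD (n = 6 each) and a grey tick for the background of each array. Hunk lay below background in all 6 knockout tumours, and each relative overlapped between the groups.

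Among the upstream components, Stk11, the kinase that activates most of the family, was measured by a pair of probe sets, both above background on every array. The brighter had a lowest value of 6.51, a median of 6.74 and a highest of 7.37 in Hunk KO tumours, against 6.54, 6.71 and 6.98 in Hunk WT tumours. The highest value was that of knockout tumour 4, and the other 11 tumours lay between 6.51 and 6.98. The difference was 0.06 (SE 0.15, interval -0.27 to 0.39), and without knockout tumour 4 it was -0.06. The dimmer probe set averaged 4.72 ± 0.10 (SD, n = 6) in Hunk KO and 4.59 ± 0.14 (SD, n = 6) in Hunk WT tumours, a difference of 0.13 (interval -0.05 to 0.30).

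The AMPK subunit genes Prkab1 and Prkag1 had negative differences, none of them called. Prkab1, the scaffolding beta subunit, had a lowest value of 6.32, a median of 7.00 and a highest of 7.30 in Hunk KO tumours, against 6.85, 7.30 and 7.72 in Hunk WT tumours. Knockout tumours 2 and 6, at 6.32 and 6.47, lay below every wild-type tumour, and the other 4 lay within the wild-type range. The difference of -0.43 (SE 0.21, interval -0.89 to 0.02) was not called (limma adjusted p = 0.47). The second Prkab1 probe set was above background on 1 array, wild-type tumour 1.

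Prkag1, the nucleotide-binding gamma subunit, was read by 2 probe sets above background throughout. The first averaged 7.56 ± 0.19 (SD, n = 6) in Hunk KO and 7.63 ± 0.20 (SD, n = 6) in Hunk WT tumours, a difference of -0.07 (interval -0.36 to 0.22). The second, of a type that can match related transcripts (_x_at), averaged 6.52 ± 0.64 (SD, n = 6) in Hunk KO and 6.86 ± 0.30 (SD, n = 6) in Hunk WT tumours. Its wider knockout spread came from tumour 4, at 5.28, while the other 5 knockout tumours lay between 6.50 and 6.96. Tumour 4 did not stand apart on the first probe set, where it read 7.42. The second difference was -0.34, and -0.09 without that tumour.

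Mark3, one of the polarity kinases, had the largest positive difference among the relatives. Its lowest value was 7.63, its median 7.83 and its highest 8.06 in Hunk KO tumours, against 6.93, 7.67 and 7.72 in Hunk WT tumours. Knockout tumours 1, 3, 4 and 5 were above every wild-type tumour, and knockout tumours 2 and 6, at 7.72 and 7.63, were not above the highest wild-type value of 7.72. The difference was 0.34 (SE 0.16, 95% confidence interval 0.00 to 0.69, limma adjusted p = 0.45), and it was 0.23 without wild-type tumour 1, the lowest.

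Mark2 was measured by a bright probe set that averaged 6.98 ± 0.18 (SD, n = 6) in Hunk KO and 6.83 ± 0.21 (SD, n = 6) in Hunk WT tumours, a difference of 0.15 (interval -0.13 to 0.43), which was 0.09 without knockout tumour 4 or without wild-type tumour 4. A second Mark2 probe set, above background on 11 arrays, differed by 0.12 (interval -0.19 to 0.43), and the third was at background throughout. Mark1 was not measurable in these tumours. Of its 5 probe sets 4 were at background on all 12 arrays, and the other passed it on 1 knockout array, so their differences of -0.07 to 0.09 place no limit on Mark1.

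Sik1, the cAMP-induced member, had a lowest value of 4.40, a median of 4.74 and a highest of 5.20 in Hunk KO tumours, against 4.45, 4.62 and 4.65 in Hunk WT tumours. The wild-type values were close together (SD 0.08), and the highest knockout value came from tumour 3. That tumour also had the highest array background, 4.00, and the skeletal muscle signal given above. The difference was 0.17 (SE 0.11, interval -0.08 to 0.41), and it was 0.08 without knockout tumour 3. The part of muscle or background in it was not tested. Snrk, which LKB1 also activates, averaged 5.26 ± 0.24 (SD, n = 6) in Hunk KO and 5.41 ± 0.10 (SD, n = 6) in Hunk WT tumours, a difference of -0.14 (interval -0.39 to 0.10), which was -0.06 without knockout tumour 5. Its second probe set was at background in every tumour.

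Within the main fit, the unadjusted intervals limit how large an increase in signal could have been missed for the relatives that were measured. They reflect only how much these samples vary, which may be technical variation. They also leave out the beta-actin 3' minus 5' difference, a sign of RNA quality, which averaged 1.51 in Hunk KO and 1.29 in Hunk WT tumours. Among the 9 probe sets above background on every array, the highest upper end of a 95% confidence interval was 0.69, or 1.61-fold, for Mark3. The next were 1.35-fold for Mark2, 1.32-fold for Sik1 and 1.31-fold for Stk11. For Snrk the upper end was 1.07-fold, for Prkab1 1.02-fold, and for the Prkag1 probe sets 1.16-fold and 1.19-fold. A doubling of signal lay outside the interval of each of these 7 genes, whereas Mark1 and Prkaa1 were not open to such a limit. For Sik1, read by a single dim probe set, this limits the signal and not with certainty its RNA. The testis-specific kinase gene Tssk1, at a mean of 4.43, also passed background on all arrays, beside 4.68 for Sik1. Sik1 and the dimmer Stk11 probe set had the lowest means of the 9, where GCRMA values can compress a difference.

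**Figure D2:**
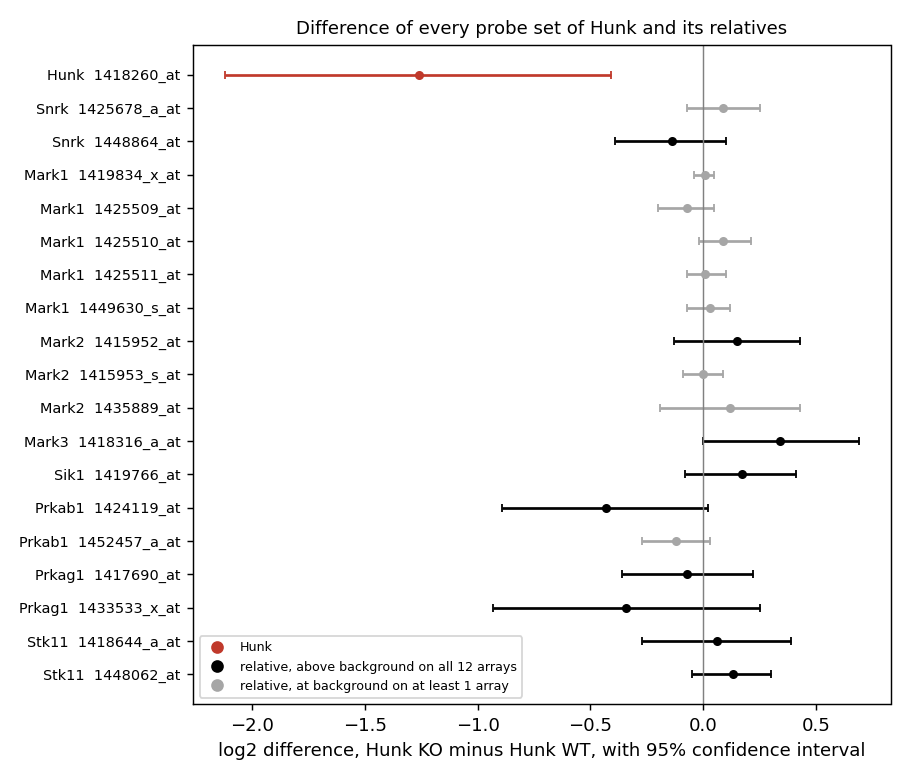
Log2 difference, Hunk KO minus Hunk WT, of all 19 probe sets of Hunk and its relatives, with 95% confidence intervals from limma. Hunk lies at -1.26 with its interval below 0, and the relatives range from -0.43 to 0.34.

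Other genes of the family gave no call either. Of a list of 18 such genes, 7 had a probe set, with 11 in all. Of these, 0 were called and 0 had an unadjusted limma p under 0.05. The shares over all probe sets were 0.672% and 11.3%, so a count of 0 among 11 says little. Besides, 6 of the 11 were above background on no array. Prkag2, a second AMPK gamma subunit, averaged 5.99 ± 0.27 (SD, n = 6) in Hunk KO and 5.79 ± 0.18 (SD, n = 6) in Hunk WT tumours on its brightest probe set, a difference of 0.20 (interval -0.10 to 0.50), which was 0.12 without knockout tumour 5 and 0.13 without wild-type tumour 4. A second Prkag2 probe set differed by 0.13, and by 0.08 without knockout tumour 3. Melk, an AMPK-related kinase of dividing cells, averaged 5.90 ± 0.56 (SD, n = 6) in Hunk KO and 6.20 ± 0.36 (SD, n = 6) in Hunk WT tumours, a difference of -0.30 (interval -0.86 to 0.25). It was -0.13 without knockout tumour 3, -0.19 without wild-type tumour 2 and -0.46 without knockout tumour 1, and with the beta-actin covariate it was 0.39. Mark4 was at background except for 1 probe set on 1 knockout array. The testis-specific kinases Tssk2, Tssk3 and Tssk6 were at background on every array, and Tssk1 differed by 0.02.

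Genes around the kinases were taken as the LKB1 complex and other upstream kinases, the substrates and effectors of AMPK, SIK and MARK kinases, and reported partners of Hunk. Of 42 listed genes, 34 had probe sets, 80 in all, and 0 were called. 10 of the 80 had an unadjusted limma p under 0.05, 7 of them higher in the knockout. Among all probe sets 11.3% had such a p and 5.61% were also higher in the knockout, so the share of the lists was near the background. The groups were separate for 2 of the 80, both of them Cab39l, where 1.58% of all probe sets were separate, so this count too was near the background. The median difference was 0.04, beside 0.036 over all probe sets.

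Cab39l, which encodes the MO25-beta scaffold that holds LKB1 in its active form, was higher in all 6 knockout tumours than in any wild-type tumour on both probe sets above background. On the brighter, Cab39l had a lowest value of 6.39, a median of 6.75 and a highest of 7.24 in Hunk KO tumours, against 5.21, 5.75 and 6.33 in Hunk WT tumours. On the dimmer the values were 4.48, 5.06 and 6.05 in Hunk KO tumours, against 3.83, 4.13 and 4.47 in Hunk WT tumours. The gap between the groups was narrow on both, 6.39 in knockout tumour 6 against 6.33 in wild-type tumour 3, and 4.48 in knockout tumour 2 against 4.47 in wild-type tumours 3 and 4.

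The brighter difference for Cab39l was 1.05 (SE 0.22, interval 0.58 to 1.51), or 2.06-fold, with a limma adjusted p of 0.0533. The dimmer was 1.00 (SE 0.23, interval 0.50 to 1.50), or 2.00-fold, with an adjusted p of 0.0841. Neither was called over all probe sets, and both were when only probe sets above the median mean were tested, with adjusted p of 0.028 and 0.0422. Over 22 alternative settings the adjusted p ranged from 0.028 to 0.232 on the brighter and from 0.0422 to 0.321 on the dimmer, and the difference stayed at or above 0.76. The third Cab39l probe set was at background. Cab39, the related MO25-alpha gene, averaged 7.92 ± 0.58 (SD, n = 6) in Hunk KO and 7.58 ± 0.24 (SD, n = 6) in Hunk WT tumours on its brighter probe set, a difference of 0.34 (interval -0.20 to 0.87).

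Of 27 marker genes of 7 cell types, 0 were called in this fit, beside 0.672% of all probe sets, so this count says little. Of the 27, 12 were above background on all 12 arrays. The mean of the 5 luminal markers lay between 10.83 and 11.58 in Hunk KO and between 9.87 and 10.67 in Hunk WT tumours. All 5 were above background on at least 1 array and 4 on all 12. Krt19 carried most of that gap, with 10.64 in Hunk KO and 6.56 in Hunk WT tumours (limma adjusted p = 0.0978), while Krt18 differed by -0.17, Epcam by -0.19, Cdh1 by 0.14 and the 3 Krt8 probe sets by 0.30 to 0.44. Markers of other cell types also differed, without a call. The fibroblast marker Col3a1 differed by 0.94 (interval 0.37 to 1.51) on its brighter probe set, and the adipocyte marker Fabp4 by 1.51 and 1.19. Among basal markers Krt14 differed by 2.52 and 2.08, but Krt5 by -0.56 and Acta2 by 0.24 on its brighter probe set. Among leukocyte markers C1qa differed by -0.52 (interval -0.88 to -0.17) and the dim Ptprc by -0.67, but Cd68 by -0.02 and Cd3e by 0.02. By list, the mean of 4 fibroblast markers lay between 6.20 and 7.12 in Hunk KO and between 5.93 and 6.53 in Hunk WT tumours, and that of 4 leukocyte markers between 5.07 and 5.91 in Hunk KO and between 5.35 and 6.13 in Hunk WT tumours. The 4 basal markers averaged between 5.22 and 6.89 in Hunk KO and between 5.11 and 7.48 in Hunk WT tumours, and the 2 adipocyte markers between 4.36 and 8.74 in Hunk KO and between 3.46 and 5.07 in Hunk WT tumours. The basal marker Trp63 was above background on 1 of its 3 probe sets, and the fibroblast markers Dcn and Pdgfra on none. The beta-actin 3' minus 5' difference, a sign of RNA quality, was 1.51 ± 0.15 (SD, n = 6) in Hunk KO and 1.29 ± 0.05 (SD, n = 6) in Hunk WT tumours. With it as a covariate the brighter Cab39l difference was 1.03 and the dimmer 0.98. The part of these cell types in the Cab39l difference was not tested.

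**Figure D3:**
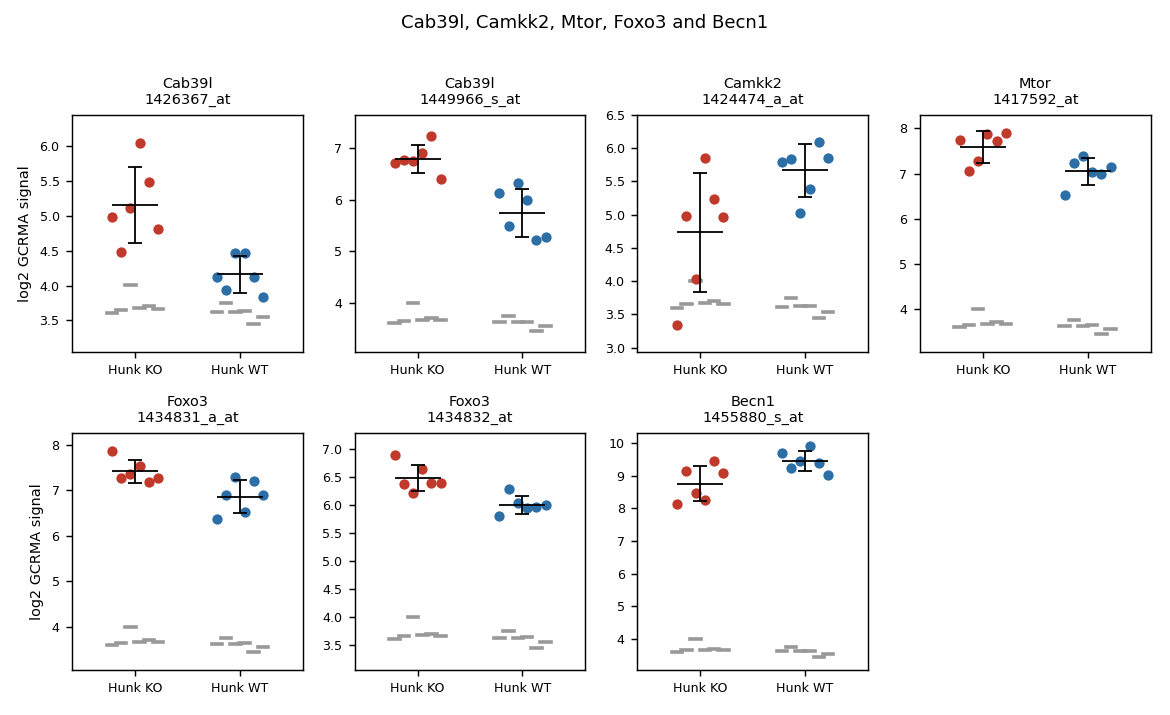
Log2 GCRMA signal of 7 probe sets of Cab39l, Camkk2, Mtor, Foxo3 and Becn1, with 1 point per tumour (Hunk KO left, Hunk WT right), mean ± SD as black bars (n = 6 each) and array background as grey ticks. Only the Cab39l probe sets are separate between the groups, and none of the 7 was called.

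The other pathway probe sets with the smallest p overlapped between groups. Foxo3, a transcription factor phosphorylated by AMPK, averaged 6.49 ± 0.24 (SD, n = 6) in Hunk KO and 6.01 ± 0.16 (SD, n = 6) in Hunk WT tumours, a difference of 0.48 (interval 0.20 to 0.76, limma adjusted p = 0.136). With array weights this difference was 0.49 and was called (limma adjusted p = 0.0178), but under no other alternative. The second Foxo3 probe set differed by 0.56 (interval 0.16 to 0.95) and the third was at background. Mtor, the growth kinase that AMPK restrains, averaged 7.59 ± 0.35 (SD, n = 6) in Hunk KO and 7.05 ± 0.30 (SD, n = 6) in Hunk WT tumours, a difference of 0.54 (interval 0.13 to 0.95, limma adjusted p = 0.275).

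Becn1, an autophagy protein reported to bind Hunk, averaged 8.76 ± 0.54 (SD, n = 6) in Hunk KO and 9.45 ± 0.32 (SD, n = 6) in Hunk WT tumours on its brightest probe set, a difference of -0.69 (interval -1.22 to -0.16, limma adjusted p = 0.286). A second Becn1 probe set differed by -0.67 and another bright one by -0.08, so the probe sets of this gene were not alike. Camkk2, a calcium-activated kinase upstream of AMPK, was named after its values were seen. It had a lowest value of 3.34, a median of 4.97 and a highest of 5.85 in Hunk KO tumours, against 5.02, 5.81 and 6.10 in Hunk WT tumours. Knockout tumour 1 was below background, and knockout tumours 1, 2, 3 and 6 were below every wild-type tumour. Its difference was -0.93 (SE 0.37, limma adjusted p = 0.345), against -0.35 with array weights and -1.42 with the beta-actin covariate, and the other Camkk2 probe set above background on all arrays differed by -0.01.

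**Figure D4:**
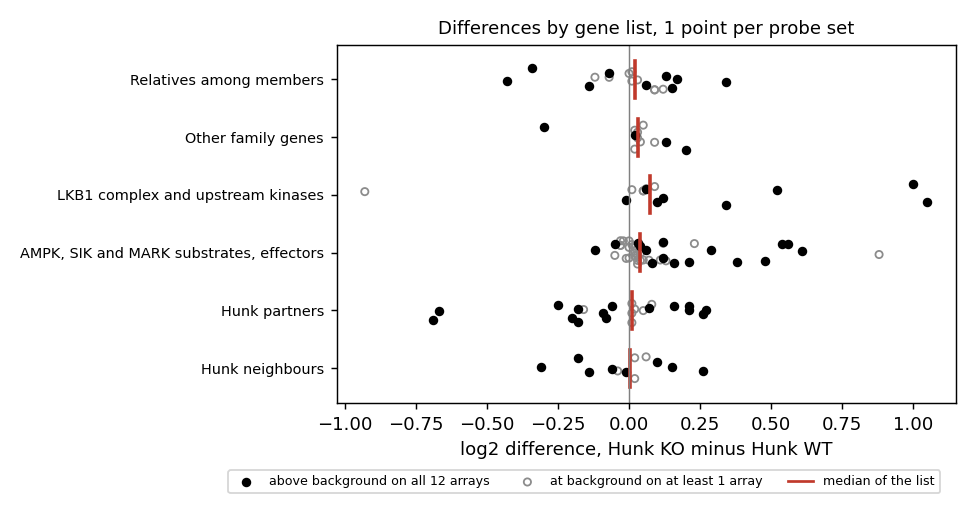
Log2 difference, Hunk KO minus Hunk WT, with 1 point per probe set for the 18 probe sets of the relatives and for 5 further gene lists, filled where the probe set was above background on all 12 arrays, and a red line at each list's median. The medians lie between 0 and 0.07, and the points farthest to the right above background throughout are the Cab39l probe sets at 1.00 and 1.05.

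The genes next to Hunk were examined because an allele made in 129-derived stem cells can bring flanking sequence with it. Of the 12 probe sets of the 3 nearest measured genes on each side, 0 were called in limma and 0 had an unadjusted p under 0.05, beside 0.672% and 11.3% of all probe sets, so a count of 0 among 12 says little. Scaf4, the nearest before Hunk in the RefSeq order, averaged 5.88 ± 0.26 (SD, n = 6) in Hunk KO and 5.90 ± 0.60 (SD, n = 6) in Hunk WT tumours. Mis18a, a centromere protein gene and the nearest after it, averaged 5.54 ± 0.44 (SD, n = 6) in Hunk KO and 5.85 ± 0.38 (SD, n = 6) in Hunk WT tumours, a difference of -0.31 (interval -0.80 to 0.18). Sod1, the cytosolic superoxide dismutase, differed by -0.14, and Tiam1, a Rac activator, by 0.26 with an interval of -0.88 to 1.39. Mrap differed by 0.15 and 0.10, and Eva1c was at background in every tumour.

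The genes whose pattern was most like that of Hunk over the 12 arrays, by Pearson correlation among 10304 named probe sets above the median mean, were Adcy7 and Map2k5 (r = 0.92 each) and Lama4, Eps8 and Fzd9 (r = 0.91 each). These were picked as the highest of many, so the values are a description. Without wild-type tumours 1 and 5, the arrays farthest from the Hunk median, r was between 0.51 and 0.80, so the likeness rests in part on that pair of tumours. Within the 6 wild-type arrays r was between 0.85 and 0.98, and the 6 knockout Hunk values were all below background. Over the 12 arrays Spearman's rho was between 0.66 and 0.91. Fzd9, a Wnt receptor gene, kept the highest value without the pair, 0.80, and averaged 5.10 in Hunk KO and 6.25 in Hunk WT tumours.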

How the data were processed

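Per the labels' protocols, tumour RNA came from a Trizol extraction, and its biotinylated cRNA was hybridised to Affymetrix arrays. The authors deposited log2 signals, and GCRMA is the only tool that the submitters' processing notes name, without a version. Values ran from -0.07 to 14.72 and were used as deposited. All 12 columns were used. The number of arrays limits the precision, and batches could not be tested, since scan dates are not given in the sources used here.

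Of 22690 probe sets, 20393 had 1 platform gene symbol, 691 several and 1606 none listed. Symbols were updated through gene identifiers in RefSeq (GRCm38.p6). Group was the only term of a linear model fitted with limma 3.58.1 in R 4.3.3 (eBayes, trend on) to all probe sets except 64 controls. It was run without an expression filter because Hunk lies below the median probe-set mean. 95% confidence intervals come from the same fit and are not adjusted for multiple tests. A gene is at background where it does not exceed the highest of 27 Bacillus control probe sets on that array. Where a genotype was at background on every array, a bound raises the values of that genotype alone to this level, and the floor setting raises those of both.

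The genes and gene lists were chosen with earlier results of these data known. Named were Hunk, its relatives, its neighbours, the 6 probe sets of smallest p in the family list and in the pathway list, and the 5 genes most like Hunk. Same-numbered arrays had deviation correlations of -0.023 to 0.142, so the numbers were not taken as pairs. The alternatives were other limma settings, filters, normalizations, a floor, array weights, a replicate block, a beta-actin covariate, averaging knockout arrays 4 and 5, 1 probe set per gene and leaving out each array. The fit was first tested on simulated data. Figures were drawn with matplotlib 3.10.9.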

Additional observations from a re-analysis of the deposited data

Results flagged for a closer look

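Among 26 sets of 6 values (13 probe sets of Hunk and its relatives above background on at least 1 array, in each genotype), 5 held a value far from the other 5. Chance alone gives about 1 such set in 20. Hunk in knockout tumour 4 read 2.60, with the nearest knockout value at 2.94, all below background. The _x_at probe set of Prkag1 read 5.28 in knockout tumour 4, with the nearest at 6.50. The other Prkag1 probe set read 7.93 in knockout tumour 1, with the nearest at 7.53. Sik1 read 4.45 in wild-type tumour 5, with the nearest at 4.58. The dimmer Prkab1 probe set read 3.70 in wild-type tumour 1, with the nearest at 3.33, and was above background there alone.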

How the results depend on the processing

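No relative, no other family gene and no Hunk neighbour was called under any alternative (0 in each of 22 or 23 settings). These counts say little, since the lists held 18, 11 and 12 probe sets and 33 to 565 of all probe sets were called. Hunk kept its sign at -1.71 to -0.64 wherever it was tested (the expression filter removes it), and no limma setting called it. The exact permutation test of the single value (-1.26) gave p = 0.0108. That p is not adjusted over probe sets, so it is set beside the unadjusted limma p of 0.00724 and not against the threshold. The pathway lists had 2 calls with the expression filter, 2 with the floor, 1 with quantile normalization, 1 with array weights and 0 to 1 with 1 array left out. Each was a Cab39l probe set except with array weights, where it was Foxo3 (0.49, limma adjusted p = 0.0178). Neither Cab39l probe set was called with array weights (limma adjusted p = 0.0699 on the brighter and 0.124 on the dimmer). The cause was not tested. Over all probe sets 152 were called, against 278 with the filter, 251 with the floor, 565 with array weights, 76 with knockout arrays 4 and 5 averaged, 33 with the beta-actin covariate and 75 to 156 with 1 array left out (75 without knockout tumour 5, 77 without knockout tumour 4, 78 without wild-type tumour 4, 88 without wild-type tumour 5, 97 and 98 without tumour 6 of the knockout and of the wild type, and 100 without knockout tumour 3). With the replicate number as a replicate block the count was 71, Hunk was at -1.26 (limma adjusted p = 0.22) and no relative was called. Differences changed sign with the beta-actin covariate for Sik1 (-0.02), the brighter Prkag1 probe set (0.08), both Prkag2 probe sets (-0.01 each) and Melk, which was at 0.39 against -0.30 without it. With knockout arrays 4 and 5 averaged, that of the brighter Stk11 probe set did (-0.01). With 1 array left out the brighter Prkag1 probe set ran from -0.14 to 0.01 and the other from -0.43 to -0.09. The brighter Stk11 probe set ran from -0.06 to 0.11 and the dimmer from 0.09 to 0.17. Signal over background limits Mark1, Mark4 and Hunk.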

Other observations

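Acacb, the acetyl-CoA carboxylase gene whose product AMPK inhibits, was looked at after its values were seen. It was above background in 2 of 6 knockout tumours, tumour 1 at 4.38 and tumour 6 at 5.02, and in 0 of 6 wild-type tumours, where the highest value was 2.28. The other 4 knockout tumours lay between 2.27 and 2.41, below background, and Acacb was not called. Cfl1, the actin-severing cofilin reported to act downstream of Hunk, averaged 11.63 ± 0.10 (SD, n = 6) in Hunk KO and 11.88 ± 0.22 (SD, n = 6) in Hunk WT tumours on its brighter probe set, a difference of -0.25 that was not called (limma adjusted p = 0.368).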
